A study of Mus musculus with 2 samples.

Results

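The family of miR-15, miR-16, miR-195 and miR-497 was described in microRNA sequencing of left cerebral cortex tissue from B6CASTF1/J males aged 10 days. Its members were taken by gene symbol, as the rows annotated Mir15a, Mir15b, Mir16-1 and Mir16-2, or Mir195 and Mir497 with or without a final letter. This gave 8 of the 2202 microRNA (miRNA) genes in the deposited counts. The series has 1 group of 2 animals, with no treatment named in the labels, both F1 hybrids of the B6 and CAST strains, with 1 library each, called replicate 1 and replicate 2. There was therefore no comparison of conditions, and the measurements concern the level of each gene and how far it differed between the libraries. Sense reads assigned to miRNA genes numbered 2677910 in replicate 1 against 1750076 in replicate 2, and levels are given in CPM, these reads scaled to a total of 1000000. The labels number the specimens as separate males under a single donor entry for the strain.

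A miRNA is cut from a hairpin precursor, and its strand from either arm of the hairpin (5p or 3p) guides a silencing complex to messenger RNAs, mainly by pairing through its seed, bases 2 to 8. miRNAs with a common seed therefore share many predicted targets. The miR-15/16 family is known for restraining the cell cycle and survival through targets such as cyclins and Bcl2. The human counterparts of Mir15a and Mir16-1 lie in a region often deleted in chronic lymphocytic leukaemia, and in the mouse heart miR-195 rises after birth as muscle cells leave the cell cycle. Reads here were counted per hairpin, so both arms are added together.

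The mature 5p sequences are shown because they define the family and decide which hairpins can be told apart by a read. They come from RefSeq (GRCm38.p6), where all 8 genes had a mature entry, and capitals mark the seed.
miR-15a-5p: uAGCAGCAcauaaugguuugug
miR-15b-5p: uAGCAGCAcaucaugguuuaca
miR-16-5p: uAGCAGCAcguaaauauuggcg
miR-195a-5p: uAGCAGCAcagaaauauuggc
miR-195b: uAGCAGCAcagaaauaguagaa
miR-497a-5p: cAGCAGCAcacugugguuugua
miR-497b: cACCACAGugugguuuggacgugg

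The seed AGCAGCA was carried by 6 of the 13 distinct mature sequences of the members. Across all 1679 mature strands with distinct names in the RefSeq table it stood at bases 2 to 8 of 10 (0.596%). miR-497b, a member by name alone, had another seed. Over the whole strand, seed included, some members with this seed were closer than others. miR-15a-5p had the same base as miR-15b-5p at 18 of 22 positions counted from the 5′ end, and the same as miR-497a-5p at 17 of 22. miR-195a-5p had the same base as miR-16-5p at 19 of 21 positions and the same as miR-195b at 18 of 21, whereas miR-16-5p and miR-497a-5p were alike at 11 of 22. The letters UGCUGCU, the reverse complement of the seed, occurred in 4 of the 13 mature sequences of the members and in 5 of the 1679 (0.298%) overall. Those 4 were the 3p strands of Mir15b, Mir16-1, Mir16-2 and Mir195a.

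The members lie at 4 loci (mm10, annotation GENCODE M21). Mir15a (chr14:61632027-61632110) and Mir16-1 (chr14:61631880-61631972) lie 54 bases apart on the minus strand within Dleu2, a long noncoding RNA gene. Mir15a overlapped no annotated exon of Dleu2, and 13 bases of Mir16-1 overlapped an exon of 1 transcript. Mir15b (chr3:69009772-69009835) and Mir16-2 (chr3:69009902-69009996) lie 66 bases apart on the plus strand in an intron of Smc4, which encodes a subunit of condensin. Mir497 (chr11:70234717-70234800) and Mir195a (chr11:70235042-70235135) lie 241 bases apart on the plus strand, and no other gene than Mir497b overlapped them in the annotation. Mir497b (chr11:70234692-70234816) lies on the minus strand and covers all 84 bases of Mir497. Mir195b (chr2:56785811-56785907, plus strand) stands alone, outside any annotated gene. The hairpins ran from 64 bases (Mir15b) to 125 bases (Mir497b), against a median of 89 bases over all listed hairpins. Their G and C content ran from 36.8% in Mir16-2 to 61.9% in Mir497, around a median of 50.8%.

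The 2 hairpins of miR-16 are printed whole because the stretch they share, in capitals, limits what could be counted for them.
Mir16-1: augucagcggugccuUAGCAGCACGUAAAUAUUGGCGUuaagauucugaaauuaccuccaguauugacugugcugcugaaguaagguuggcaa
Mir16-2: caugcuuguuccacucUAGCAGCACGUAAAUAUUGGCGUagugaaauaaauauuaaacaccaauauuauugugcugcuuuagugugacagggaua

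The shared stretch is 23 bases long and holds all 22 bases of miR-16-5p. A read of that mature strand therefore matches both hairpins, and reads mapped to more than 1 place were assigned to no gene. The counts of Mir16-1 and Mir16-2 hold reads that could be placed at 1 of them, such as those of the 3p strands, which differ between the hairpins. They are lower limits for these genes and do not measure miR-16-5p. None of the other 6 members shared 20 bases with a hairpin at another locus. Only listed hairpins were compared, so copies elsewhere in the genome were not looked for. The longest stretch among those 6 was 16 bases, between Mir195a and Mir195b.

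The family held 11202 reads in replicate 1, or 0.418% of assigned reads (exact Clopper-Pearson 95% interval 0.411% to 0.426%), and 6511 reads in replicate 2, or 0.372% (0.363% to 0.381%). The mean was 0.395% ± 0.0327 (SD, n = 2), and the intervals cover counting error only. With reads mapped to more than 1 place added to the total, but none of them to the family, the mean share was 0.176%. A level of at least 2 CPM in each library, which counts as detected here, was found for 6 of the 8 genes and for 442 of all 2202 (20.1%). The other members, Mir195b and Mir497b, had 0 sense reads in both libraries. The 3-read level, a rough upper limit for a count of 0, was 1.12 CPM in replicate 1 against 1.71 CPM in replicate 2. Their exact 95% counting intervals reached 1.38 CPM in replicate 1 and 2.11 CPM in replicate 2, the latter above 2 CPM. The locus of Mir497 and Mir195a gave 54.0% of the family's reads in replicate 1 against 44.0% in replicate 2. The Dleu2 locus gave 28.0% and 24.9%, and the Smc4 locus 18.0% and 31.1%. Among reads placed at 1 locus, chromosome 11 gave the most in both libraries, and the order of the other loci differed between them. The read totals of Dleu2, of Smc4 and of the whole family leave out reads of miR-16-5p and are lower limits.

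Mir195a had 1250 CPM in replicate 1 against 729 CPM in replicate 2, with a mean of 989 ± 369 CPM (SD, n = 2). Mir497, its neighbour, had 1008 and 907 CPM, a mean of 957 ± 71.5 CPM. They were the highest members by mean level, at places 106 and 109 of 2202 genes. Mir15b had 634 CPM in replicate 1 against 1109 CPM in replicate 2, with a mean of 871 ± 336 CPM. Mir15a had 530 and 735 CPM, a mean of 632 ± 145 CPM. Replicate 1 was thus the higher library for the chromosome 11 pair and the lower one for both miR-15 genes. Mir16-1 had 643 CPM in replicate 1 against 191 CPM in replicate 2, with a mean of 417 ± 320 CPM, and Mir16-2 had 118 and 50.3 CPM, a mean of 84.3 ± 48.1 CPM. Both miR-16 genes were higher in replicate 1.

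**Figure D1:**
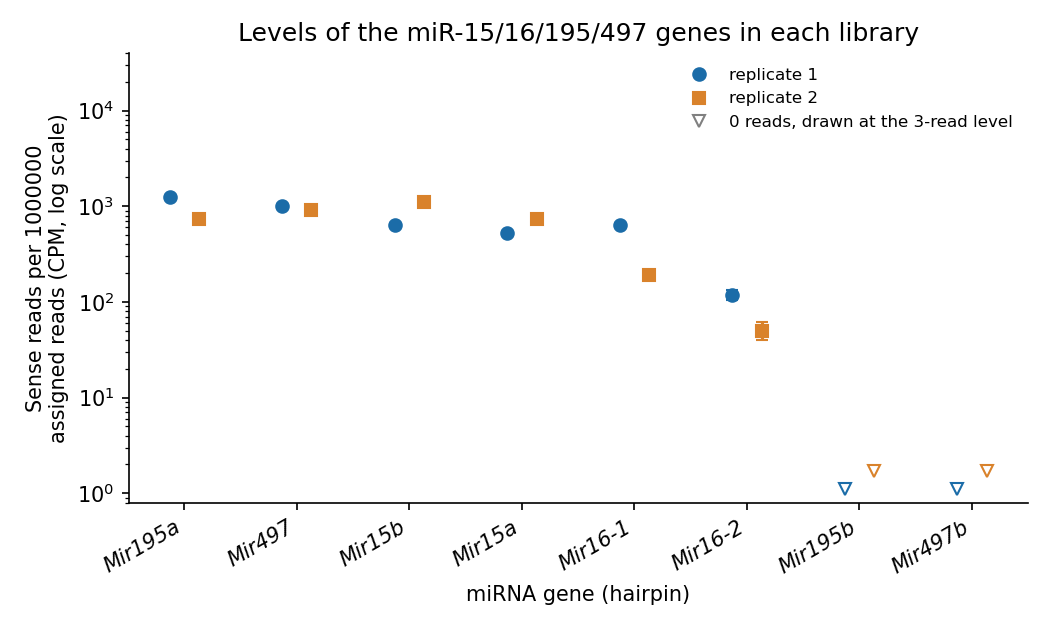
Sense reads scaled to 1000000 assigned reads (CPM, log scale) for the 8 genes, ordered by mean level, with replicate 1 (circles) left of replicate 2 (squares); bars are exact 95% counting intervals, and open triangles mark genes with 0 reads, drawn at the 3-read level. The first 4 genes lie between 530 and 1250 CPM, Mir16-2 lies at 118 and 50.3 CPM, and Mir195b and Mir497b have no reads.

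By mean CPM of reads placed at 1 locus, the order of the members ran Mir195a, Mir497, Mir15b, Mir15a, Mir16-1, Mir16-2. For each of the first 4 steps the values of the neighbours overlapped between the 2 libraries, so those neighbours did not differ beyond their spread. Mir16-1 and Mir16-2 did not overlap, and their means stood 4.95-fold apart, but both levels leave out reads of miR-16-5p, so their places and this ratio hold only for reads that could be placed. With replicate 1 alone, 3 of the 6 detected members held the same place, and with replicate 2 alone also 3. A read spans about 1 mature strand whatever the length of the hairpin, so CPM were not divided by length. When they were, Mir15b came first at 1361 CPM per 100 bases, ahead of Mir497 at 1140 and Mir195a at 1053.

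The libraries were compared gene by gene with a two-sided Fisher's exact test, over the 542 genes at 2 CPM or more in either library. Calls needed a log2 ratio, replicate 1 over replicate 2, of at least 1 in size together with an adjusted p (Benjamini-Hochberg) under 0.05. Of all tested genes 65 (12.0%) were called, 34 (6.27%) higher in replicate 1 and 31 (5.72%) higher in replicate 2. Of the 6 tested members, 2 were called, both higher in replicate 1. They were Mir16-1, with 1723 reads in replicate 1 against 335 in replicate 2, and Mir16-2, with 317 and 88. The log2 ratio was 1.75 for Mir16-1 (95% counting interval 1.58 to 1.92; Fisher's exact test, Benjamini-Hochberg adjusted p = 3.49e-115) and 1.23 for Mir16-2 (0.89 to 1.59; Fisher's exact test, adjusted p = 1.5e-13). The test compares these libraries, not conditions, and takes no account of the spread between animals.

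The other 4 members stayed within 2-fold and were not called. Mir195a had 3348 reads in replicate 1 against 1275 in replicate 2, with a log2 ratio of 0.78 (with a 95% counting interval of 0.69 to 0.87). Mir497 had 2699 and 1587 reads, a log2 ratio of 0.15 (0.06 to 0.24). Mir15b had 1697 and 1940 reads, a log2 ratio of -0.81 (-0.90 to -0.71), and Mir15a had 1418 and 1286 reads, a log2 ratio of -0.47 (-0.58 to -0.36). None of these intervals held 0, although each ratio was under the minimum. For Mir497 this depended on the scaling: by Fisher's exact test with Benjamini-Hochberg adjustment its log2 ratio was 0.10 (adjusted p = 0.0712) with TMM totals and 0.08 (adjusted p = 0.131) with DESeq2 size factors. Over all alternatives with a value for Mir497 the adjusted p of this Fisher's exact test ran from 0.00164 to 0.131. The median log2 ratio was 0.47 over the 6 members and 0.09 over all 542 tested genes. In size, without regard to sign, the medians were 0.79 and 0.46, and 4 of the 6 members against 405 of the 542 genes (74.7%) lay within 2-fold.

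**Figure D2:**
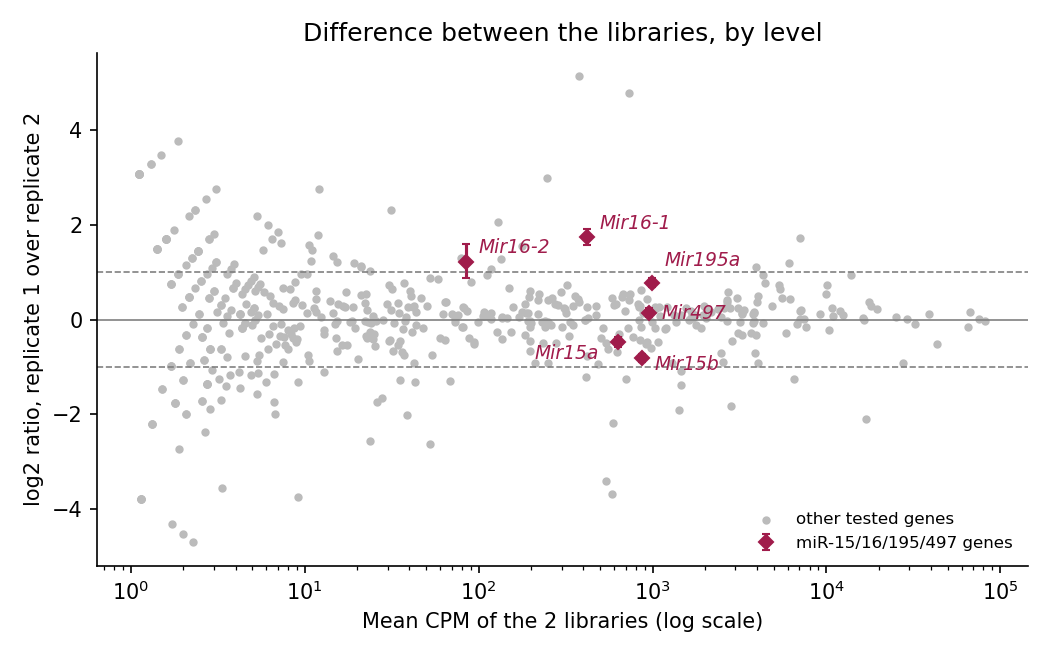
The log2 ratio of replicate 1 over replicate 2 (0.5 reads added to each count) against the mean CPM of the 2 libraries on a log scale, for the 542 tested genes (grey) and the 6 tested members (diamonds, with 95% counting intervals); dashed lines mark a log2 ratio of 1 in either direction. Mir16-1 at 1.75 and Mir16-2 at 1.23 lie above the upper line, and the other 4 members lie between the lines.

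Other measures were also compared between the libraries, and only some stood apart. Reads mapped to more than 1 place, where reads of miR-16-5p would be, were 38.2% of all reads in replicate 1 against 28.3% in replicate 2, or 51.2% and 49.2% of mapped reads. Both genes of the red blood cell list, Mir451a and Mir144, were called higher in replicate 1, with summed levels of 789 CPM in replicate 1 against 30.9 CPM in replicate 2. The list of 3 genes of proliferating cells (Mir17, Mir20a and Mir93) summed to 7444 and 8333 CPM, with none called. The part of these measures in the values of the miR-16 genes was not tested. For the tissue itself, all 5 listed neuronal miRNA genes were detected, with summed levels of 35870 and 28386 CPM, while the liver miRNA Mir122 stood at 55.6 and 45.1 CPM. The endothelial and mural list summed to 13444 CPM in replicate 1 against 15009 CPM in replicate 2, the oligodendrocyte list to 813 and 1406, and the microglia and leukocyte list to 950.0 and 723. Skeletal muscle (21.7 and 25.7 CPM) and pancreas (129 and 179 CPM) were low. In these lists Mir132 (neuron) and Mir217 (pancreas) were also called, both higher in replicate 2.

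Neighbouring hairpins, which can be cut from 1 primary transcript, were not in a constant proportion. At the Dleu2 locus the ratio of Mir15a to Mir16-1 reads was 0.823 in replicate 1 (exact 95% counting interval 0.767 to 0.883) and 3.84 in replicate 2 (3.40 to 4.34). At the Smc4 locus the ratio of Mir15b to Mir16-2 reads was 5.35 in replicate 1 (4.75 to 6.05) and 22.0 in replicate 2 (17.8 to 27.6). Both ratios were higher in replicate 2, by 4.66-fold at Dleu2 and 4.12-fold at Smc4, and the miR-16 hairpin is the one whose 5p reads cannot be placed. On chromosome 11 neither hairpin shares 20 bases with a listed hairpin at another locus. There the ratio of Mir497 to Mir195a was 0.806 in replicate 1 (0.766 to 0.848) and 1.24 in replicate 2 (1.16 to 1.34). It lay below equal numbers in replicate 1 and above them in replicate 2, where it was 1.54 times as high. With 1 library on each side these differences have no replicate check beyond counting error.

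**Figure D3:**
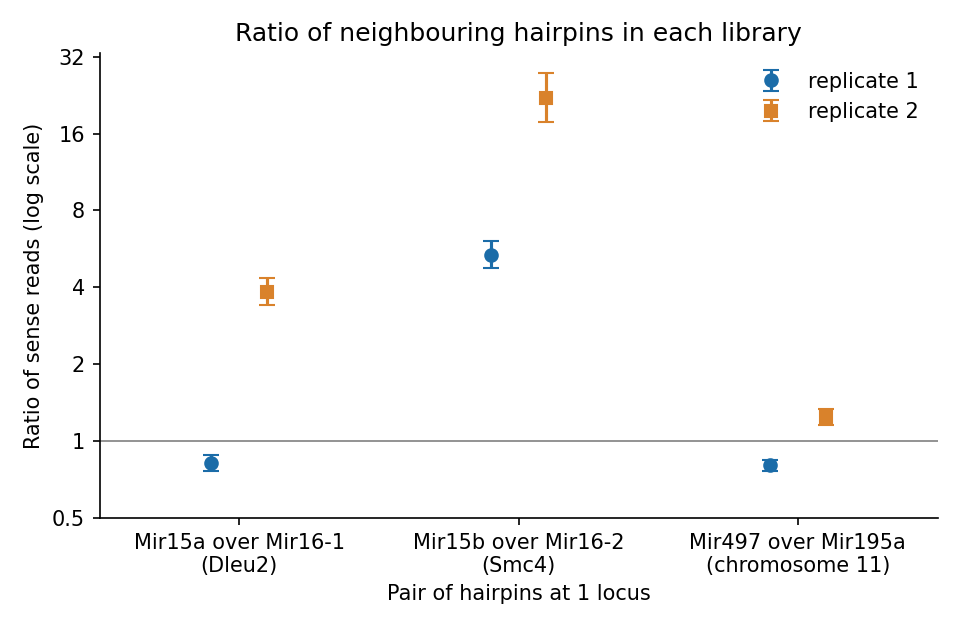
Ratio of the sense reads of 2 neighbouring hairpins at each of 3 loci (log scale), in replicate 1 (circles, left) and replicate 2 (squares, right), with exact 95% counting intervals and a line at equal numbers. The ratio is higher in replicate 2 at every locus, reaching 22.0 for Mir15b over Mir16-2.

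By reads that could be placed, the 2 miR-16 hairpins differed between the libraries in the same direction. The ratio of Mir16-1 to Mir16-2 reads was 5.44 in replicate 1 (exact 95% counting interval 4.82 to 6.15) and 3.81 in replicate 2 (3.00 to 4.87). Together they made up 18.2% of the family's reads in replicate 1 (17.5% to 18.9%) and 6.50% in replicate 2 (5.91% to 7.12%). Without them the family held 0.342% of assigned reads in replicate 1 against 0.348% in replicate 2, with a mean of 0.345% ± 0.00406 (SD, n = 2). The share was then slightly lower in replicate 1, whereas with them it was higher there. The near-equal sum held members that differed in opposite directions. Their log2 ratios were 0.78 for Mir195a, 0.15 for Mir497, -0.81 for Mir15b and -0.47 for Mir15a.

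The wider group of miR-15 and miR-107 was read from a list of 8 genes that are not members. It held Mir322 and Mir503, neighbours on the X chromosome, and Mir103-1, Mir103-2 and Mir107, whose 3p strand carries AGCAGC 1 base nearer its 5′ end. The other genes, Mir6342, Mir6353 and Mir6419, were listed for a mature strand with the family's seed. Of the 8, 5 were detected, and the last 3 named had 0 reads in both libraries. The mature strands below show the shift of the seed, with bases 2 to 8 in capitals.
miR-322-5p: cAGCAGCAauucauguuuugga
miR-503-5p: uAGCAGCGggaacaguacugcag
miR-103-3p: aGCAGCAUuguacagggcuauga
miR-107-3p: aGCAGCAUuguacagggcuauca

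Mir322, the mouse counterpart of human miR-424, had 2293 CPM in replicate 1 against 2060 CPM in replicate 2, with a mean of 2177 ± 165 CPM (SD, n = 2), above the counted level of every member in both libraries, of which those of Mir16-1 and Mir16-2 are lower limits. Mir503 had 205 reads in replicate 1 against 175 in replicate 2. Scaled to the assigned reads, its level was higher in replicate 2. The log2 ratio was -0.39 (95% counting interval -0.68 to -0.09), and the gene was not called. The 11 genes with the AGCAGCA seed held 0.648% of assigned reads in replicate 1 against 0.578% in replicate 2, and Mir322 alone gave 35.4% and 35.6% of those reads, which likewise leave out miR-16-5p. Among the 5 tested genes of the list, none was called higher in replicate 1 and 2 were called higher in replicate 2, against 6.27% and 5.72% of all tested genes. These were Mir107, with 3327 reads in replicate 1 against 7708 in replicate 2 (log2 ratio -1.83, 95% counting interval -1.88 to -1.77), and Mir103-1, with 14 and 23 reads (log2 ratio -1.31, -2.40 to -0.31). The median log2 ratio of the 5 was -0.75. For Mir107 and both miR-103 genes the ratios hold only for reads that could be placed at 1 locus. The 2 hairpins of miR-103 hold the same miR-103-3p, as those of miR-16 hold the same 5p strand. Mir103-2 had 108 and 119 reads and Mir103-1 had 14 and 23 reads in replicates 1 and 2, fewer than were counted for Mir107. miR-107-3p differs from miR-103-3p only near its 3′ end, so reads that stop short of that base match the miR-103 hairpins too. The counts of Mir103-1, Mir103-2 and Mir107 are therefore lower limits. They do not show whether miR-107-3p or miR-103-3p was the more abundant.

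**Figure D4:**
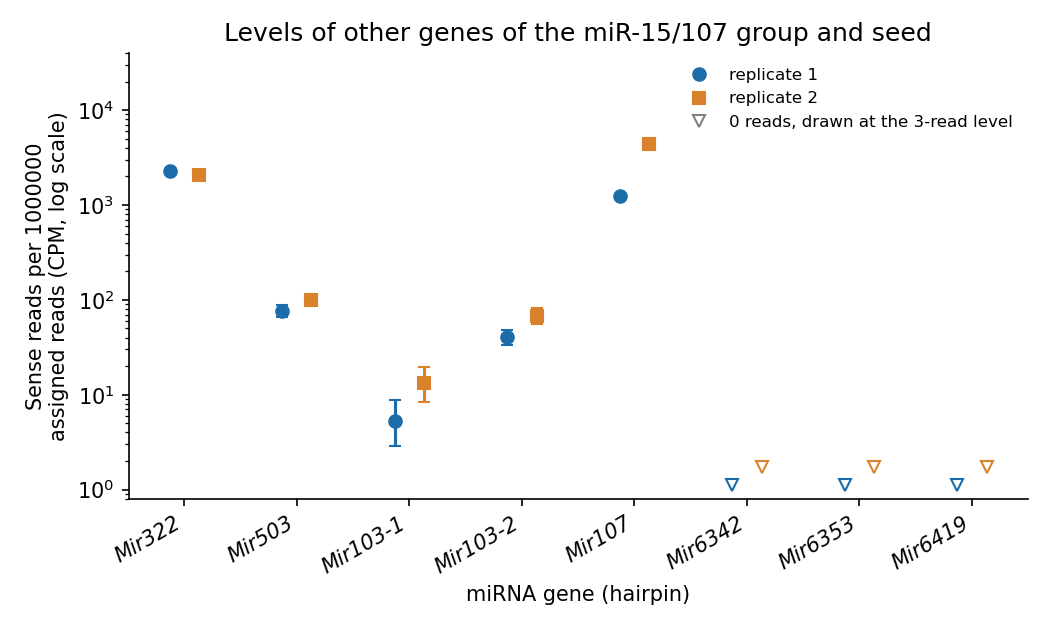
Sense reads scaled to 1000000 assigned reads (CPM, log scale) for the 8 listed genes of the wider group, with replicate 1 (circles) left of replicate 2 (squares), exact 95% counting intervals, and open triangles at the 3-read level for genes with 0 reads. Mir322 lies at 2293 and 2060 CPM and Mir107 at 1242 and 4404 CPM, while Mir6342, Mir6353 and Mir6419 have no reads.

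The detected genes nearest to the 2 highest members were found by distance in log2(CPM + 1) over the 2 libraries, a likeness of level that carries no more than 2 values a gene. For Mir195a they were Mir181a-1, at 1069 CPM in replicate 1 against 783 CPM in replicate 2 (distance 0.25), and Mir92-1, at 1040 and 668 CPM (distance 0.29). For Mir497 they were Mir1249, at 974 and 1003 CPM (distance 0.15), and Mir490, at 1114 and 944 CPM (distance 0.15).

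Strand decided whether Mir497 was seen at all. With reads counted without regard to strand, Mir497 and Mir497b both had 0 reads in both libraries. The family's share was then 0.320%, against 0.395% with sense reads. Mir497b covers all 84 bases of Mir497, so without strand a read there lies in both genes. In the unstranded column 180955 reads in replicate 1 and 108944 in replicate 2 were set aside as ambiguous. The 2699 reads in replicate 1 and 1587 in replicate 2 that were counted for Mir497 by strand lie in both genes. Without strand they were counted for neither. On the strand of the gene, all reads of that position fell to Mir497. The mature miR-497b printed above overlaps miR-497a-3p by 17 bases on the opposite strand.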

How the data were processed

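The samples were 2 microRNA sequencing libraries of cortical total RNA in 1 group, with a size range below 30 per the labels. The deposited values are the authors' raw counts of reads for each miRNA gene, in an unstranded, a sense and an opposite-strand column. They refer to mm10 and GENCODE M21, per the text files that accompany them. For the aligner and the counting program, nothing was given in the sources used here. The 4 rows that name no gene were left out. Unmapped reads were 25.5% of reads in replicate 1 and 42.4% in replicate 2. Sense counts were divided by their sum over the 2202 genes, all matched to symbols in M21.

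Libraries were compared with Fisher's exact test, two-sided, over all tested genes (Python 3.11.15, scipy 1.17.1), with Benjamini-Hochberg adjustment and 0.5 reads added for ratios. edgeR 4.0.16 (TMM) and DESeq2 1.42.0 size factors gave other scalings (R 4.3.3). The procedure was tested on simulated data that held counting error only, so that test does not cover the spread between animals. Named were all members, the listed wider group, 2 nearest genes for each of 2 members, and marker lists. Members and lists were chosen with earlier results of these data known. PCR copies are not independent molecules, so intervals cover counting error only, and CAST alleles that differ from mm10 were not considered.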

Additional observations from a re-analysis of the deposited data

Results flagged for a closer look

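Mir497b had 2699 reads in the opposite-strand column of replicate 1 and 1587 in that of replicate 2, where its own strand had 0. These numbers equal the sense reads of Mir497, which it covers on the other strand. This column entered no level, and it drew attention because its count exceeded the 3 reads taken as a rough upper limit for a count of 0.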

How the results depend on the processing

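The family's share of 0.395% was 0.320% with unstranded reads and 0.176% with reads mapped to more than 1 place in the total alone. It ran from 0.372% to 0.418% with either replicate left out. By mean CPM, 1 of 6 members kept its place with unstranded reads, where Mir497 has 0 reads, and 3 with either replicate left out. With no minimum log2 ratio 229 genes were called and 6 members, in place of 65 and 2. TMM and DESeq2 scaling, both filters and 1 read added left the number of members called at 2. The log2 ratio of Mir15a over Mir16-1 ran from -0.28 to 1.94 with 1 replicate left out, that of Mir15b over Mir16-2 from 2.42 to 4.46, and that of Mir497 over Mir195a from -0.31 to 0.32. The library test needs both libraries, so no replicate could be left out of it. No paired analysis was possible because there is 1 group. Depth limits the 2 genes with 0 reads to the 3-read level.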
